A study of Homo sapiens with 6 samples.

Results

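In 22Rv1 cells, an established human prostate cancer line, 1614 of 167726 open-chromatin regions were prominent at 0 h, still carried a peak at 1 h and had no peak at 24 h. They were chosen from the peak lists themselves. Peaks of all 6 libraries were merged wherever they shared at least 1 bp, on the autosomes and X. A region was prominent when its highest peak stood at or above the 50th percentile of its own list in both 0 h libraries. A member also had a peak in 1 or 2 of the 1 h lists and none in either 24 h list. The percentile ranks the fold, which is the authors' ratio of the read pileup at a peak's summit to the local background. Of the 52130 prominent regions, 3.10% were members, 976 with a peak in both 1 h lists and 638 with a peak in 1 of them. Strength at 0 h and presence at the later times made this selection, so they are described here without a test.

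The assay was ATAC-seq, in which a transposase inserts sequencing adapters into accessible DNA. There were 6 libraries, 2 for each of the labels FOXA1_dTAG,0h, FOXA1_dTAG,1h and FOXA1_dTAG,24h. All of them come from 22Rv1 cells labelled with the same degradation tag on FOXA1, and no library of untagged cells was analysed here. The labels do not name the molecule that triggers degradation, its dose, whether the tagged line is 1 clone, or whether the 0 h cells received the solvent. They also do not say that the replicates were separate cultures, so the spread between them may be technical.

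FOXA1 is a forkhead pioneer factor, a transcription factor that can bind its sites on nucleosomal DNA and make the neighbouring DNA accessible to others. In luminal prostate cells many of its sites lie in distal enhancers, where the androgen receptor and HOXB13 also bind. With a dTAG fused to it, a protein can be brought by a small molecule to an E3 ubiquitin ligase and is then removed by the proteasome. ATAC-seq reads accessibility and not FOXA1 occupancy, and the FOXA1 protein was not measured in these files. The sequence and the genes of the regions were not analysed here, because no hg19 sequence or annotation was used. For the same reason the luminal identity of the cells was not checked against marker genes.

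The lists held 101755 to 125396 peaks on these chromosomes. Depth was read as the background pileup per kb of fragment length. The shortest peak of each list stood in for that length, which was not itself measured. Depth in this sense lay between 8.14 and 10.45 over the libraries of 0 h and 1 h. It was lower in both 24 h libraries, 7.33 and 7.04. Where the local background was at its genome-wide floor, the weakest peak called at 24 h had 6 tags and a fold of 3.37 in replicate 1, and 5 tags and a fold of 3.07 in replicate 2. A member at that floor therefore stayed under these levels at 24 h, or held them over less than the shortest peak of 147 or 136 bp. No peak means not detectable at this depth, and the part of depth in the members' absence at 24 h was not tested.

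Members were well inside the upper part of the 0 h lists and low in the 1 h lists. Their median fold was 8.91 in 0h replicate 1 and 8.88 in 0h replicate 2. Among the 1287 members with a peak in 1h replicate 1 it was 4.58, and among the 1303 with one in 1h replicate 2 it was 4.63. The medians of the replicates lay close together within each time, and those of 0 h and 1 h lay apart. The choice of members by a high rank in both 0 h lists and by absence at 24 h favours this order. The median percentiles were 73.6 and 68.9 at 0 h, against 28.0 and 30.3 at 1 h. Prominent regions with a peak in all 6 lists, of which there were 47412, had median percentiles of 78.5 and 80.05 at 0 h and 78.1 and 79.3 at 1 h. Ranks from lists of unequal length do not by themselves measure a change, so the members were also read in lists shortened to 101755 peaks each. There the medians were 69.4 and 61.7 at 0 h for all 1614 members, and 29.9 and 25.4 at 1 h for the 1076 and 968 members still listed.

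**Figure D1:**
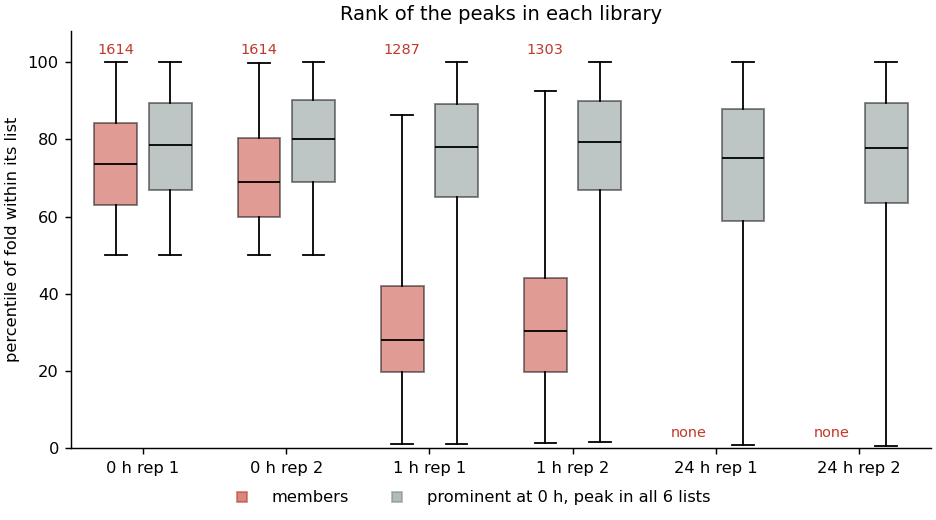
Percentile of the fold within each library's own list (vertical axis) for the members and for prominent regions with a peak in all 6 lists; boxes span the quartiles with the median as a line, whiskers reach the lowest and highest region, and red numbers count members with a peak. Members have medians of 73.6 and 68.9 at 0 h and 28.0 and 30.3 at 1 h, and no peak at 24 h.

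The recovered tag counts show the same order at the summit itself. They are solved in part from the fold that ranked the regions, so the choice of members favours this order too. A whole-number pileup, the number of fragments covering the summit, could be solved from the deposited fold and −log10 p. Its median over members was 26 tags in 0h replicate 1 and 18 in 0h replicate 2, and 11 in each 1 h library among the members with a peak there. Pileups of different libraries also depend on their depth and fragment length. In regions with a peak in all 6 lists the medians were 42 and 32 tags at 0 h and 36 and 38 at 1 h, so those regions did not show the low 1 h values of the members. Most member peaks at 1 h stood on the floor of the background, 71.9% in replicate 1 and 69.8% in replicate 2, against 37.1% and 41.3% at 0 h.

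Among the 976 members with a peak in both 1 h lists, 906 (92.8%) ranked lower in both 1 h lists than in both 0 h lists. The same held for 11049 of the 47412 regions with a peak in all 6 lists (23.3%). The choice of members by a high 0 h rank and by absence at 24 h favours such an order. The median difference in mean percentile, 1 h minus 0 h, was −40.09, with quartiles of −50.8 and −27.2. In regions with a peak in all 6 lists it was −0.23. At 0 h, 787 of the 976 (80.6%) were strong in both libraries, meaning a −log10 q of at least 10. At 1 h, 30 (3.07%) were strong in both libraries and 818 (83.8%) in neither. Of the regions with a peak in all 6 lists, 94.2% were strong in both 0 h libraries. At 1 h, 86.8% of them were strong in both libraries and 4.86% in neither. For 1730 prominent regions with both 1 h peaks and a peak in a single 24 h list, the shares were 79.0%, 12.0% and 62.4%. Only 62 of the 976 still stood at or above the 50th percentile in both 1 h lists, against 42276 of the 47412 and 397 of the 1730.

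The 638 members with a peak in a single 1 h list were split evenly between the libraries, with 311 in replicate 1 and 327 in replicate 2. At 0 h they were close to the others in rank, with median percentiles of 72.6 and 68.3 against 74.7 and 69.96 for members with both 1 h peaks. At 1 h their peaks were weaker, with medians of 9 and 10 tags against 11 and 12. A peak at 1 h was thus lower in the members where only 1 library held it.

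The 10 highest-ranked members had mean 0 h percentiles of 98.96 to 99.9, and they differed in what was left at 1 h. The region chr4:29277801-29278247 had folds of 24.1 and 21.2 at 0 h, no peak in 1h replicate 1 and a fold of 4.62 in 1h replicate 2. Its summit held 75 and 46 tags at 0 h and 10 tags in that 1 h library. On chromosome 5, chr5:15798193-15798504 was alike, with 16.4 and 22.2 at 0 h, none in 1h replicate 1 and 4.62 in 1h replicate 2. Both are narrow regions of 447 and 312 bp whose peak was found in the same single 1 h library. Another of the 10, chr13:85947403-85947835, was also narrow at 433 bp but had a peak in both. The third with 1 such peak among the 10 highest-ranked members was chr4:44569799-44570281, with folds of 17.2 and 17.8 at 0 h and 5.42 in 1h replicate 1 only.

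The other 7 of these 10 members had a peak in both 1 h libraries. At chr18:70856833-70857619 the folds were 19.1 and 20.7 at 0 h and 6.25 and 4.20 at 1 h. At chr13:85947403-85947835 they were 20.03 and 18.8 at 0 h and 5.83 and 5.46 at 1 h. At chr2:162701367-162701936 they were 19.9 and 18.3 at 0 h and 3.75 and 4.20 at 1 h. In each of these the folds of the 2 times did not overlap, and no 1 h fold exceeded 6.25. The same separation held in all 10, and choosing the highest 0 h percentiles favours it. At chr6:99318782-99319395 they were 17.3 and 18.98 at 0 h and 6.25 and 5.89 at 1 h, and at chr2:186678448-186679073 they were 16.6 and 18.8 at 0 h and 4.17 and 4.62 at 1 h. A pair of regions kept more of their rank at 1 h. One was chr12:27456019-27457072, with 18.8 and 17.5 at 0 h and 9.17 and 7.99 at 1 h, and the other chr6:48884173-48885217, with 17.4 and 17.7 at 0 h and 7.92 and 9.36 at 1 h. These were the longest of the 10, at 1054 and 1045 bp, and their mean percentiles at 1 h were 72.5 and 72.8. The length is that of the merged region, which a 1 h peak can extend.

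Members with both 1 h peaks ranged widely in how far their rank differed between the times. The largest fall was at chr4:116576677-116577116, with folds of 16.8 and 16.1 at 0 h and 3.33 and 3.78 at 1 h, a mean percentile of 98.0 against 8.31. It was followed by chr2:162701367-162701936, described above, and by chr15:82223089-82223876, with folds of 15.4 and 11.8 at 0 h and again 3.33 and 3.78 at 1 h. The others were chr10:95786865-95787473, whose mean percentile was 98.5 at 0 h and 15.6 at 1 h, and chr6:104676693-104677449, with 84.9 and 5.36. At these 5 the 1 h summits held 7 to 16 tags, and all of them had a peak in each of the 1 h libraries.

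At the other end, the 5 members with the smallest fall ranked higher at 1 h than at 0 h by the mean of both libraries and still had no peak at 24 h. The first, chr18:24268199-24268544, had folds of 6.49 and 6.79 at 0 h and 9.58 and 7.99 at 1 h, with 16 and 12 tags at 0 h and 22 and 18 at 1 h. Both 1 h values lay above both 0 h values there. At chr1:183668765-183669360 the folds were 7.15 and 7.35 at 0 h and 7.08 and 8.26 at 1 h, so the times overlapped. At chr1:228230998-228231493 they were 7.88 and 6.90 against 6.42 and 9.42, at chr6:96206551-96206930 6.87 and 8.35 against 7.50 and 7.99, and at chr2:58431096-58431903 7.99 and 6.79 against 7.50 and 7.43. In these 3 the values of the times overlapped as well. All 5 stood at mean 0 h percentiles between 52.5 and 60.9, near the lower limit of the selection.

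The regions on either side of the limit at the 50th percentile had nearly equal folds. Just inside it lay chr1:35791902-35792486, chr4:111169708-111170355 and chr11:72889090-72889478, each with a lower 0 h percentile of 50.01 and a fold of 6.58 in 0h replicate 2. Just outside lay chr14:37582279-37583032, with a lower percentile of 49.95, and chr3:164197798-164198457 and chr10:109378035-109378482, both with 49.94. Their folds in the lower 0 h library were 6.57, 6.21 and 6.57.

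Membership became rarer with strength at 0 h. Of the 5279 prominent regions with a mean 0 h percentile of 50 to 60, 275 (5.21%) were members, and of the 11131 regions from 90 upwards, 166 (1.49%) were. This was not particular to members. Regions with no peak at 1 h or 24 h made up 3.35% and 0.449% of the same steps. Over all prominent regions, 1.83% had no peak in either 1 h list and 4.77% had no peak in either 24 h list, against 13.1% of all 99494 regions held by both 0 h lists. Among the 2485 prominent regions without a 24 h peak, 64.9% still had one at 1 h, which makes them members, and 871 had none. The share of regions without a 24 h peak that still had one at 1 h was 60.8% in the lowest step, 63.5%, 66.6% and 63.5% in the next 3 steps and 76.9% in the highest. In the highest step, 114 of 216 regions (52.8%) had a peak in both 1 h lists and 50 had none.

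**Figure D2:**
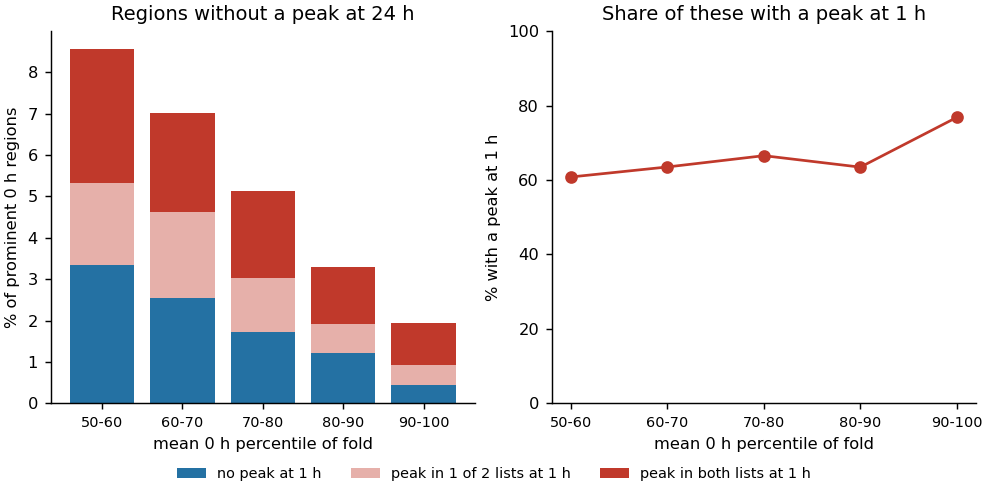
Left, percent of prominent 0 h regions without a peak at 24 h in each step of mean 0 h percentile, divided by the number of 1 h lists with a peak; right, the percent of those regions with a peak in at least 1 of the 1 h lists. Members fall from 5.21% to 1.49% of the step's regions, and the share with a 1 h peak is highest (76.9%) in the top step.

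The members were narrower at 0 h than prominent regions that kept a peak throughout, and wider than those already without one at 1 h. Width was not a value in the rule, but it moves with strength. A wider 0 h peak also more easily shares 1 bp with a later peak, which then counts as presence. The part of this in the widths below was not tested. The median peak width of members was 457 bp in 0h replicate 1 and 352 bp in 0h replicate 2. Regions with a peak in all 6 lists had 620 and 521 bp, and the 871 prominent regions with no peak at 1 h or 24 h had 367 and 281 bp. Within each of the 5 steps of 0 h percentile and each 0 h library the order was the same, in 10 of 10 comparisons. The 0 h libraries themselves differed, since the shortest peak was 155 bp in replicate 1 and 111 bp in replicate 2, so widths at 0 h are compared only within a library. Among regions without a 24 h peak, the share that still had one at 1 h was 49.1% in the narrowest and 81.7% in the widest of 4 groups of about equal size by 0h replicate 1 width, and 50.8% and 78.8% by 0h replicate 2 width. The median 0 h percentile also differed between those groups, 64.9 against 77.8 and 61.4 against 72.3.

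The local background moved with this difference in width. At 0 h, 37.1% and 41.3% of members stood on the floor of the background, where the region around the peak adds nothing to it, against 14.7% and 15.05% of regions with a peak in all 6 lists and 50.4% and 55.1% of those without a peak from 1 h on. When only regions on this floor were compared, a comparison added after seeing the data, members were narrower than regions with a peak in all 6 lists in 4 of 10 comparisons instead of 10 of 10. They were still wider than regions without a peak from 1 h on in 9 of 10. In the 70 to 80 step, for example, members on the floor had a median width of 380 bp in 0h replicate 1, and regions with a peak in all 6 lists had 383 bp. The members' widths on this floor thus lay near those of regions with a peak in all 6 lists.

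**Figure D3:**
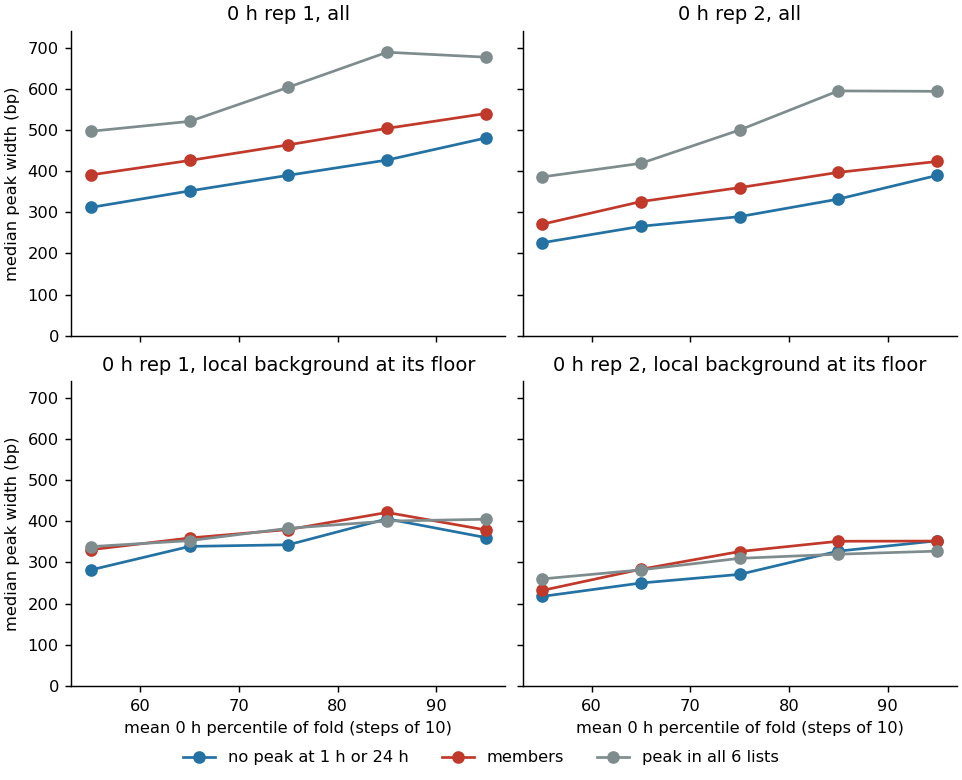
Median peak width in bp at 0 h by step of mean 0 h percentile, for the members, for prominent regions with a peak in all 6 lists and for those with no peak at 1 h or 24 h; columns are the 0 h libraries, and the lower row holds only regions whose local background is at the genome-wide floor. Members lie between the other classes in 10 of 10 steps above and below regions with a peak in all 6 lists in 4 of 10 steps in the lower row.

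At 1 h the members' peaks were narrower relative to 0 h than those of regions with a peak in all 6 lists, and their summits were placed less exactly. The shortest peak, which stood in for the fragment length, differed between libraries. Fragment length moves widths, so both classes were read in the same pairs of libraries. Over the 4 pairs of a 0 h and a 1 h library, the median ratio of 1 h to 0 h width was 0.659 to 0.928 in the 976 members with both 1 h peaks and 0.989 to 1.16 in the other regions. Member by member the order was less uniform, with both 1 h peaks narrower than both 0 h peaks in 435 of the 976 (44.6%). The same held for 3869 of the 47412 regions with a peak in all 6 lists (8.16%). Among 1730 prominent regions with both 1 h peaks and a peak in a single 24 h list, it held for 504 (29.1%). Width moves with strength, and these widths were not compared at an equal 1 h rank. Summit position was not used by the rule. Between the 0 h libraries the members' summits lay a median of 34 bp apart, close to the 38 bp of regions with a peak in all 6 lists. Between the 1 h libraries they lay 65.5 bp apart, against 31 bp. From a 0 h library to a 1 h library the members' medians were 57 to 76 bp, and those of the other regions 27 to 54 bp. The members' summits thus differed between the times by about as much as between the 1 h libraries themselves. With 2 libraries per time the exact two-sided permutation test cannot go below 0.333, so these distances are a description.

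**Figure D4:**
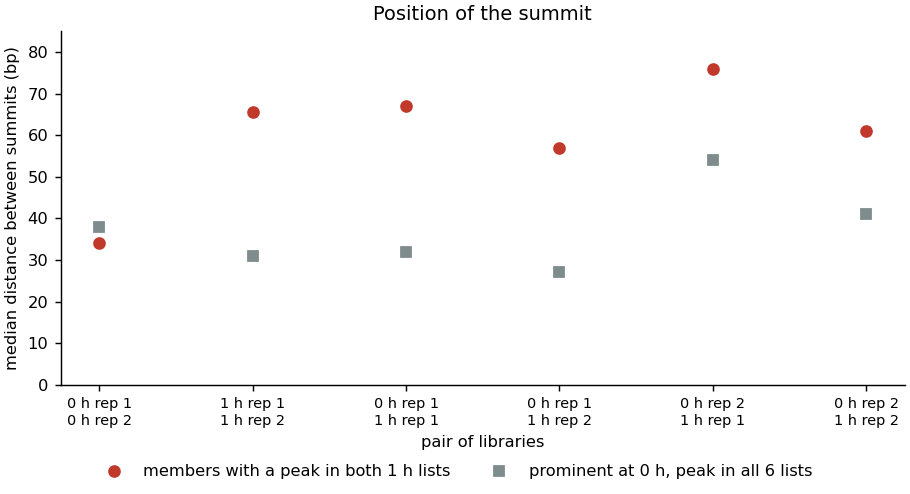
Median distance in bp between the summits of the same region in each pair of libraries, for the 976 members with a peak in both 1 h lists and for 47412 prominent regions with a peak in all 6 lists. The classes lie close together for the 0 h pair (34 and 38 bp) and apart for the 1 h pair (65.5 and 31 bp).

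Weak peaks have less exact summits, and the strength of the 1 h peaks moved with this distance. Regions with a peak in all 6 lists were therefore also read at the same 1 h rank. At a mean 1 h percentile of 20 to 30, the summits of 231 members lay 77 bp apart between the 1 h libraries and those of 250 such regions 60 bp apart. At 40 to 50, the values were 57 bp for 195 members and 50 bp for 1943 regions. In each of the 4 rank groups compared, from 0 to 50, the gap between the classes was smaller than over all their regions. The ranks of the 976 members followed each other between the 0 h libraries (Spearman's rho 0.66, Pearson's r 0.675) and less so between the 1 h libraries (rho 0.36, r 0.38). Between a 0 h and a 1 h library rho was 0.12 to 0.15. Values of one library share its depth, and the 0 h ranks were limited to 50 and above by the rule.

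Members lay more often where regions with a peak in all 6 lists were sparse. Position was not used by the rule, but these neighbours were defined by the same lists, those of 24 h included. Members are not counted among them, and the density at 0 h alone was not read. Within 250 kb of a member there was a median of 12 regions with a peak in all 6 lists, against 16 around prominent regions of that kind and 10 around those without a peak from 1 h on. When prominent regions were divided into 4 groups by this number, 5.23% (619 of 11825) of the sparsest group, with 0 to 9 such neighbours, were members. The share was 3.47% and 2.43% in the middle groups and 1.49% (198 of 13251) in the densest, with 23 to 63 neighbours. Regions without a peak from 1 h on fell more steeply, from 3.63% to 0.58%. The share of regions without a 24 h peak that still had one at 1 h was 59.1% in the sparsest group and 72.0% in the densest. No test was made, since neighbouring regions are not replicates.

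The next region with a peak in all 6 lists was a median of 16.1 kb from a member, and 12.1 kb from another such region. It was under 10 kb away for 34.2% of members, 42.1% of the other such regions and 31.6% of those without a peak from 1 h on. The shares under 50 kb were 84.45%, 90.99% and 80.5% in the same order, so the members lay between the other classes. The distance was larger for strong members, with 15.3 kb in the 50 to 60 step and 24.1 kb from the 90th percentile upwards. It was also larger for strong regions of the other kind, with 8.70 and 15.1 kb in the same steps. The next member was a median of 491 kb from a member, against 686 kb from a region with a peak in all 6 lists. From a region without a peak from 1 h on it was 435 kb. Another member lay within 10 kb of 27 of the 1614 (1.67%). The share was 0.865% for regions with a peak in all 6 lists and 1.72% for those without a peak from 1 h on. Within 50 kb the shares were 8.86%, 5.48% and 10.6% in the same order. Nearness to a member was thus not particular to the members.

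**Figure D5:**
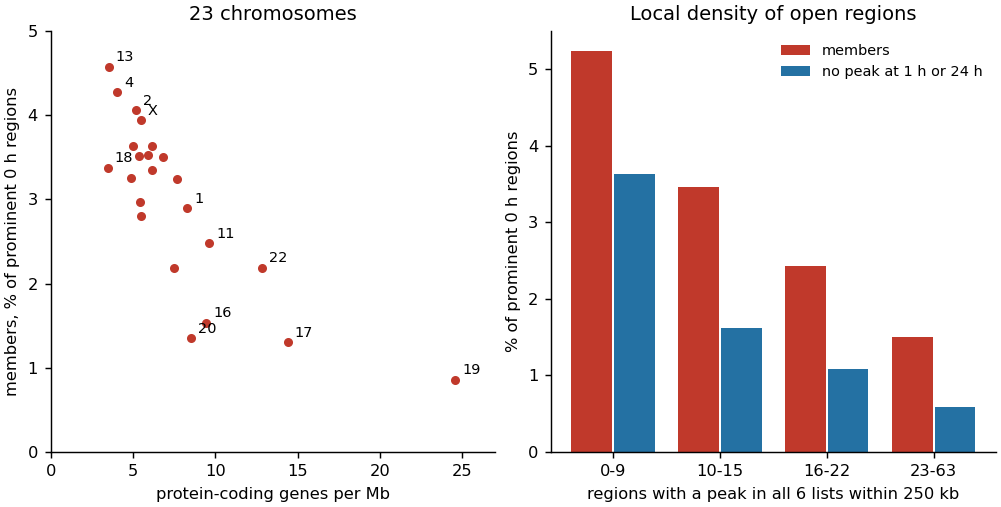
Left, percent of prominent 0 h regions that were members against protein-coding genes per Mb, 1 point per chromosome; right, percent that were members or had no peak at 1 h or 24 h, by the number of regions with a peak in all 6 lists within 250 kb. The members' share goes from 4.58% on chromosome 13 to 0.86% on chromosome 19, and from 5.23% to 1.49% across the 4 groups.

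Chromosomes differed in the same way. Members made up 4.58% of the prominent regions of chromosome 13 (63 of 1376), 4.28% of those of chromosome 4 and 4.06% of those of chromosome 2. They made up 0.86% on chromosome 19 (16 of 1866), 1.30% on chromosome 17 and 1.35% on chromosome 20. Chromosomes 13 and 4 hold few protein-coding genes for their length and chromosomes 19 and 17 many. Over the 23 chromosomes, the members' share and the number of genes per Mb had a Spearman's rho of −0.80 and a Pearson's r of −0.79, and without chromosomes 17 and 19 −0.74 and −0.75. The share of regions without a 24 h peak that still had one at 1 h showed a weaker relation of the other sign, with rho 0.36 and r 0.50, and 0.18 and 0.41 without those chromosomes. Chromosomes share libraries and local density, so these values are descriptive.

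The 1614 members fell into 1137 of the 2885 windows of 1 Mb that held a prominent region, and 93 windows held 3 or more. The window with the most was chr8:108000001-109000000, with 6 members among 19 prominent regions. All of its other prominent regions but 1 had a peak in all 6 lists (12), and none was without a peak at both later times. Its members were chr8:108024867-108025386, chr8:108163656-108164168, chr8:108242023-108242367, chr8:108314511-108315434, chr8:108350773-108351834 and chr8:108655634-108656203. Their folds ranged from 7.64 to 13.4 at 0 h and from 3.36 to 6.31 at 1 h, and 3 of them had a peak in 1 of the 1 h lists only. These ranges did not overlap, an order that the choice of members favours, and the 6 regions are not replicates.

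The second window, chr7:107000001-108000000, held 5 members among 35 prominent regions, of which 29 had a peak in all 6 lists. The strongest, chr7:107668494-107669077, had folds of 15.1 and 17.6 at 0 h and 6.25 and 5.04 at 1 h. Next to it lay chr7:107695066-107695294 and chr7:107731899-107732262, and farther along lay chr7:107920259-107920943 and chr7:107991978-107992848. The last of these had folds of 12.03 and 12.1 at 0 h and 3.94 and 4.20 at 1 h. Here members stood among many regions that kept their peak.

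The third window, chr6:95000001-96000000, was sparse. It held 20 regions in all and 6 prominent ones, of which 4 were members, 1 had no peak at 1 h or 24 h and 1 had a peak in all 6 lists. The members were chr6:95059051-95059513, chr6:95583479-95583779, chr6:95593506-95594747 and chr6:95980225-95980991, and each had a peak in both 1 h lists. The longest, chr6:95593506-95594747, had folds of 10.98 and 10.85 at 0 h and 5.83 and 8.41 at 1 h. Its next region with a peak in all 6 lists was 247 kb away. Across the 4 members the folds of the 2 times overlapped, with a lowest 0 h fold of 6.79 at chr6:95583479-95583779. The windows were ranked by their number of members, so that number is a description.

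The number of members depended on single libraries and on what counts as presence. Without 24h replicate 2 there were 3063, since more prominent regions lacked a peak in 24h replicate 1 alone, and without 0h replicate 1 there were 2424. When peaks had to cover 50% of a region there were 3598, of which 1069 overlapped a member as first defined. When the lists held only peaks past a −log10 q of 10 there were 1195, of which 69 overlapped one, so that limit picked other regions. In the reverse direction, 45720 regions stood at or above the 50th percentile in both 24 h lists. Of these, 485 had a peak at 1 h and none in either 0 h list. That is 1.06%, against 3.10% for the members. The 24 h lists, in which members lack a peak, were shorter than the 0 h lists and, by the background pileup per kb, shallower. The part of this in the 2 shares was not tested.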

How the data were processed

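Each library had its own peak list. The tools named per the submitters' processing notes are MACS2, Bowtie2, fastp and FastQC, with the hg19 build; versions, read shifting and duplicate removal are not given in the sources used here. Each peak's fold (a ratio), −log10 p, −log10 q and score (a truncated multiple of the −log10 q) are as deposited by the authors. From these, regions, percentiles, widths and summit distances were computed in Python 3.11.15 with pandas 2.3.3 and scipy 1.17.1. The summit pileup and local background were solved from fold and −log10 p, assuming MACS2's pseudocount of 1 and Poisson p. A whole number matched within 0.001 for 100% of peaks. Coordinates are 1-based hg19. Gene numbers per chromosome come from RefSeq on GRCh38.p14, used for counts only, and chromosome lengths from the span of the regions.

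The members and lists were chosen with earlier results of these data known. The rule for named regions took the 10 members with the highest mean 0 h percentile, the 5 largest and 5 smallest falls to 1 h, the 3 regions on each side of the percentile limit and the 3 windows with the most members. Planned motif and gene analyses need the hg19 sequence and annotation and were not run. Merging, the rule and the pileup were tested on simulated data. The alternatives are in the closing section.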

Additional observations from a re-analysis of the deposited data

How the results depend on the processing

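No paired analysis was possible because the counts come from no test and the meaning of a replicate number is not labelled; applying the rule within each replicate number (a replicate block) gives the 976 members with both 1 h peaks by construction, 1.87% of prominent regions. The results were the number of members (1614), those with both 1 h peaks (976), their share of prominent regions (3.10%, exact 95% binomial interval 2.95% to 3.25%, counting error only), the median percentile difference (−40.09) and the median 0 h width (404.5 bp, the mean of both libraries). With peaks covering 50% of a region they were 3598, 2388, 7.80% and −21.3 for the first 4. With percentile minimums of 40, 60 and 75 there were 2433, 1063 and 452 members, 3.87%, 2.57% and 1.84% of prominent regions, with differences of −32.97, −45.1 and −50.8, and at 75 there were 295 with both 1 h peaks. A −log10 q of at least 5 gave a share of 3.34%, and one of at least 10 gave 4.65%, a difference of −36.2 and a width of 514 bp. Lists of one length gave 643 with both 1 h peaks and 2.71%, and ranking by −log10 p gave 2.57%. At the limit of 5, 582 of 1334 members overlapped one as first defined. With lists of one length 955 of 1171 did. Leaving out 1 library at a time gave 1288 to 3063 members, 1343 to 2226 with both 1 h peaks, shares of 2.47% to 5.88%, differences of −43 to −32.6 and widths of 293.5 to 422 bp. Leaving out a library loosens or tightens the rule by construction, and without a 1 h library no count with both 1 h peaks exists. The cause of the other differences was not tested. Summit windows of 500 bp and all chromosomes changed none of the 5 results by more than the limits used, 1.5 times for counts and the spread for the others.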

Other observations

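Regions that missed the selection by a single 24 h peak were more numerous than the members. Of the prominent regions with a peak in at least 1 of the 1 h lists, 1985 had a peak in exactly 1 of the 24 h lists. That peak was in replicate 2 for 1448 of them (72.95%) and in replicate 1 for 537, and replicate 2 had the longer list (114362 against 101755 peaks). These 24 h peaks were weak, with median folds of 4.81 in replicate 1 and 4.60 in replicate 2 and median pileups of 10 and 9 tags.

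The 1730 regions with peaks in both 1 h lists and 1 of the 24 h lists lay between the members and the regions with a peak in all 6 lists. Their median difference in mean percentile, 1 h minus 0 h, was −27.7, and 81.0% of them (1401) ranked lower in both 1 h lists than in both 0 h lists. At 0 h their median percentiles of 71.0 and 68.9 were close to those of the members. They had a median of 12 regions with a peak in all 6 lists within 250 kb, as the members did.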
